A study of Homo sapiens with 18 samples.

Results

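The first day of hypoxia in APOA4-KO cells is described here from 3 libraries taken at 0 h and 3 taken after 24 h at 1% oxygen, 6 of the 18 poly(A) RNA-seq libraries of the series. They were chosen by line and time alone, as the labels give them. APOA4-KO was made from HepG2, a human line grown from a liver tumour that keeps much of the secretory program of hepatocytes, by CRISPR-Cas9 with a pair of guides against APOA4, and according to the study's methods cells with both alleles mutated were expanded from single colonies. Hypoxia was given in a tri-gas incubator. The 3 HepG2 libraries at 0 h and the 3 at 24 h served for the difference between the lines, and the 3 APOA4-KO libraries at 48 h for the course after the first day. No cells were kept outside hypoxia for 24 h, so hypoxia and a day in culture cannot be told apart, and the edit cannot be told apart from any other way in which a line expanded from single cells differs from HepG2. The labels do not say that replicates came from separate cultures, so the p-values measure only the spread between these libraries.

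Cells read oxygen through the prolyl hydroxylases EGLN1, EGLN2 and EGLN3, which use oxygen to mark the alpha subunits of the hypoxia-inducible factors, HIF1A and EPAS1, for destruction through VHL. When oxygen is low the alpha subunits persist, pair with ARNT and bind short DNA elements with a core of ACGTG or GCGTG. Known targets include glucose transporters and glycolytic enzymes, PDK1, which holds pyruvate back from mitochondria, the growth factor VEGFA, the acid-handling carbonic anhydrase CA9 and the hydroxylase gene EGLN3 itself. In hepatocytes the same response is known to raise lipid storage, and the kidney and liver hormone gene EPO is a classical target.

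The designed sequences behind the line are shown first, since counts for APOA4 remained in every APOA4-KO library. APOA4 (ENSG00000110244) lies on the minus strand of chromosome 11 at chr11:116820700-116823306 (GRCh38, GENCODE annotation) and has 3 exons. The guides are printed 5′ to 3′ in lower case, with the PAM in capitals.
sgRNA1: agtggtggctgttccgtgcgTGG
sgRNA2: ttggggaccgagacgagtctGGG
The letters of sgRNA1 with its PAM were found at chr11:116823497-116823519 on the plus strand of GRCh38.p14, within the RefSeq promoter window of APOA4 and 193 to 215 bases before its RefSeq start, and in no APOA4 transcript. Those of sgRNA2 were found neither in the APOA4 transcript sequence nor in any promoter window, and were not looked for in a whole genome. APOA4, the apolipoprotein A-IV of intestinal and hepatic lipoproteins, had 662, 702 and 607 counts in the APOA4-KO libraries at 0 h and 696, 585 and 652 at 24 h. The 2 groups overlapped, the log2 fold change was 0.04 (SE 0.081), and the adjusted p was 0.741 (edgeR quasi-likelihood test, Benjamini-Hochberg adjusted over all genes tested). In HepG2, with 755, 799 and 702 counts at 0 h and 1522, 1763 and 1738 at 24 h, the same gene rose by 1.16 on the log2 scale, from 8.46 to 9.67 CPM (counts scaled to library size) up to 19.77 to 21.03 CPM, and the difference between the lines was -1.12 (adjusted p = 3.39e-07, edgeR). Of the exon bases of APOA4, 43.1% are shared with a gene on the opposite strand. Whether counting used strand is not stated in the sources used here, so part of these counts may not come from APOA4. Counts of RNA do not show what protein the edited alleles leave. The study reports a check of the edited region by gel electrophoresis and sequencing. According to the study, APOA4 protein was assayed in both lines under hypoxia. Its text gives a rise of the protein in hypoxia without naming a line, and describes the edited line as lacking APOA4.

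Promoters of 5 upregulated genes are printed as examples of where the HIF core letters stand. Each window runs from 250 bases before to 50 bases after the RefSeq start (GRCh38.p14), is given 5′ to 3′ on the strand of the gene, and has every match to ACGTG or GCGTG on either strand in capitals. CA9, ADM and FAM13A were among the largest increases, and PLIN2 and GPR146 rose more in APOA4-KO than in HepG2.
CA9, chr9:35673678-35673977, plus strand: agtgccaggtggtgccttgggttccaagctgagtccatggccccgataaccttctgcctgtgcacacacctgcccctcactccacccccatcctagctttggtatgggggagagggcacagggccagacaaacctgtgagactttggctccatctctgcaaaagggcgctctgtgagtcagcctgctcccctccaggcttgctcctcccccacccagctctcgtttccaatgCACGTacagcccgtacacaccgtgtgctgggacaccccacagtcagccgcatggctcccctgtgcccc
ADM, chr11:10304823-10305122, plus strand: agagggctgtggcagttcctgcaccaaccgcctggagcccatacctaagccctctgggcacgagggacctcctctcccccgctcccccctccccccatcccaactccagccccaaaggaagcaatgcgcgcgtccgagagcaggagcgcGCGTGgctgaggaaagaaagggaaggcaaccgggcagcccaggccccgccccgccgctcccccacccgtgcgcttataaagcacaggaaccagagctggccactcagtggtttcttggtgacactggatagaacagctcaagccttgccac
FAM13A, chr4:89057136-89057435, minus strand: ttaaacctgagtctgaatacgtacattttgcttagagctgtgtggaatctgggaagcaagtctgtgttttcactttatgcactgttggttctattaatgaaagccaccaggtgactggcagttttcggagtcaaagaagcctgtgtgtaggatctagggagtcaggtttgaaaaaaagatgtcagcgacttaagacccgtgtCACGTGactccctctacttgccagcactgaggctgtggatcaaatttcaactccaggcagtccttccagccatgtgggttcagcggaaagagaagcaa
PLIN2, chr9:19127443-19127742, minus strand: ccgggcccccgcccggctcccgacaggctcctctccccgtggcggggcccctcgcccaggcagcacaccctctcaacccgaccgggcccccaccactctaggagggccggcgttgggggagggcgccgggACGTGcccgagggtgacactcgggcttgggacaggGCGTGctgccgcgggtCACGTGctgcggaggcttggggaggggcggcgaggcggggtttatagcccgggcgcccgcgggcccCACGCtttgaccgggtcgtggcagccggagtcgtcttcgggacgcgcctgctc
GPR146, chr7:1044296-1044595, plus strand: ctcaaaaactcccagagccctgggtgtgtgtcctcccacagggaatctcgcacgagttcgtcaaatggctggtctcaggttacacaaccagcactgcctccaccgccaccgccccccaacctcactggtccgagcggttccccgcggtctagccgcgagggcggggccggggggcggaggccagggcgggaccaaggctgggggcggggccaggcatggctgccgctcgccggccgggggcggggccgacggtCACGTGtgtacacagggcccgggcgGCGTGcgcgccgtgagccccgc
For a gene with more than 1 window, the window with the most matches was printed. In these windows, CA9 and ADM each held 1 match, FAM13A held 2 that overlap because CACGTG reads the same on both strands, GPR146 held 3 and PLIN2 held 5. In genes with a single window, ACGTG stood in 34.6% of 298 windows of upregulated genes, 22.6% of 186 windows of downregulated genes and 26.5% of the 9342 windows of all genes tested, against 21.4% of all 35116 windows of the same length. GCGTG stood in 45.6%, 45.2% and 49.1% of the same 3 sets and in 36.5% of all windows. Of the 12 largest increases, 11 matched a window, and 8 of them (72.7%) held either core in at least 1 window. Among the 12825 genes tested that matched a window, that share was 67.2%. These shares are a description of the letters and were not tested.

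Total counts lay between 76481820 and 82260992 in the 24 h libraries and between 76778865 and 86840028 in the 0 h libraries. All 3 libraries of each group showed high levels of hepatocyte genes, with albumin (ALB) between 18330 and 19610 CPM in all 6, and the summed level of 14 hepatocyte markers was 73700 to 74800 CPM at 0 h and 90000 to 92900 CPM at 24 h. Markers of other liver cells were low: the summed level of the endothelial list was 15.2 to 17.6 CPM at 0 h and 10.9 to 15.6 CPM at 24 h, that of the stellate and fibroblast list 128 to 131 CPM and 104 to 113 CPM, and that of the leukocyte and Kupffer cell list 39.0 to 40.8 CPM and 50.2 to 63.1 CPM. Of the endothelial, stellate and leukocyte markers tested, 1 was called, CLDN5, with 0.845 to 1.06 CPM at 0 h and 0.180 to 0.534 CPM at 24 h, and that call was lost without replicate 1 at 0 h and without replicate 2 or replicate 3 at 24 h. The defining markers DCN, MARCO and STAB2 did not pass the filter on low counts.

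Replicate 1 at 24 h stood apart from the other libraries of its group. Among 12784 genes whose mean reached 100 counts, 51 were at least 3-fold above and 30 at least 3-fold below both other replicates, against 4 to 8 above and 10 to 11 below in replicates 2 and 3, and 11 to 14 above and 12 to 21 below in the libraries at 0 h. Of the 51 genes, 47 lay within 2-fold of their mean at 0 h in this library, and in 46 every 0 h library was above replicates 2 and 3 at 24 h. In 43 of them every APOA4-KO library at 0 h was above all 14 remaining libraries, which include all of HepG2 and APOA4-KO at 48 h. ITGA5, the alpha chain of the fibronectin receptor, had 29.7, 4.01 and 5.73 CPM at 24 h and 25.6, 26.1 and 26.3 CPM at 0 h. COL4A2, a chain of basement membrane collagen, had 17.4, 2.68 and 4.08 CPM at 24 h and 14.3 to 16.1 CPM at 0 h, and FSTL1, a secreted glycoprotein, had 15.4, 2.93 and 3.20 CPM against 13.15, 13.02 and 13.82 CPM. All 3 genes were near their 0 h level in replicate 1 and far below it in replicates 2 and 3.

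The genes that replicate 1 at 24 h lacked included transcripts of blood cells. S100A9, a calcium-binding protein of neutrophils and monocytes, had 0.356, 13.6 and 9.98 CPM at 24 h, and PTPRC, the leukocyte surface phosphatase CD45, had 0, 6.77 and 7.81 CPM. Over 10 such genes, chosen after their values were seen, the summed level was 0.97 CPM in this library, 46.0 and 41.96 CPM in the other 24 h libraries and 17.6 to 23.0 CPM at 0 h, and replicate 3 of HepG2 at 0 h, with 0.3 CPM, was the only other library under 13.61 CPM. Of the 30 genes below both other replicates, 17 were also lowest in that HepG2 library. Without replicate 1 at 24 h, 1321 genes passed the limits in place of 1160, of which 966 were shared, and the number of downregulated genes was 599 in place of 432 while that of upregulated genes was 722 in place of 728. Of the 273 downregulated genes gained, 269 had replicate 1 above both others, and of the 51 genes above, 42 were called lower without the library and 1 with it. Both counts follow largely from how these genes were picked and are no separate evidence on this library. The level of CA9 in replicate 1, 305.6 CPM, was between those of the other 24 h libraries, 299.5 and 306.3 CPM. Whether this library holds only the material its label names could not be settled from the files, and every APOA4-KO group value at 24 h given here includes it unless it is said to be left out. The part of these transcripts in the results was not tested.

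**Figure D1:**
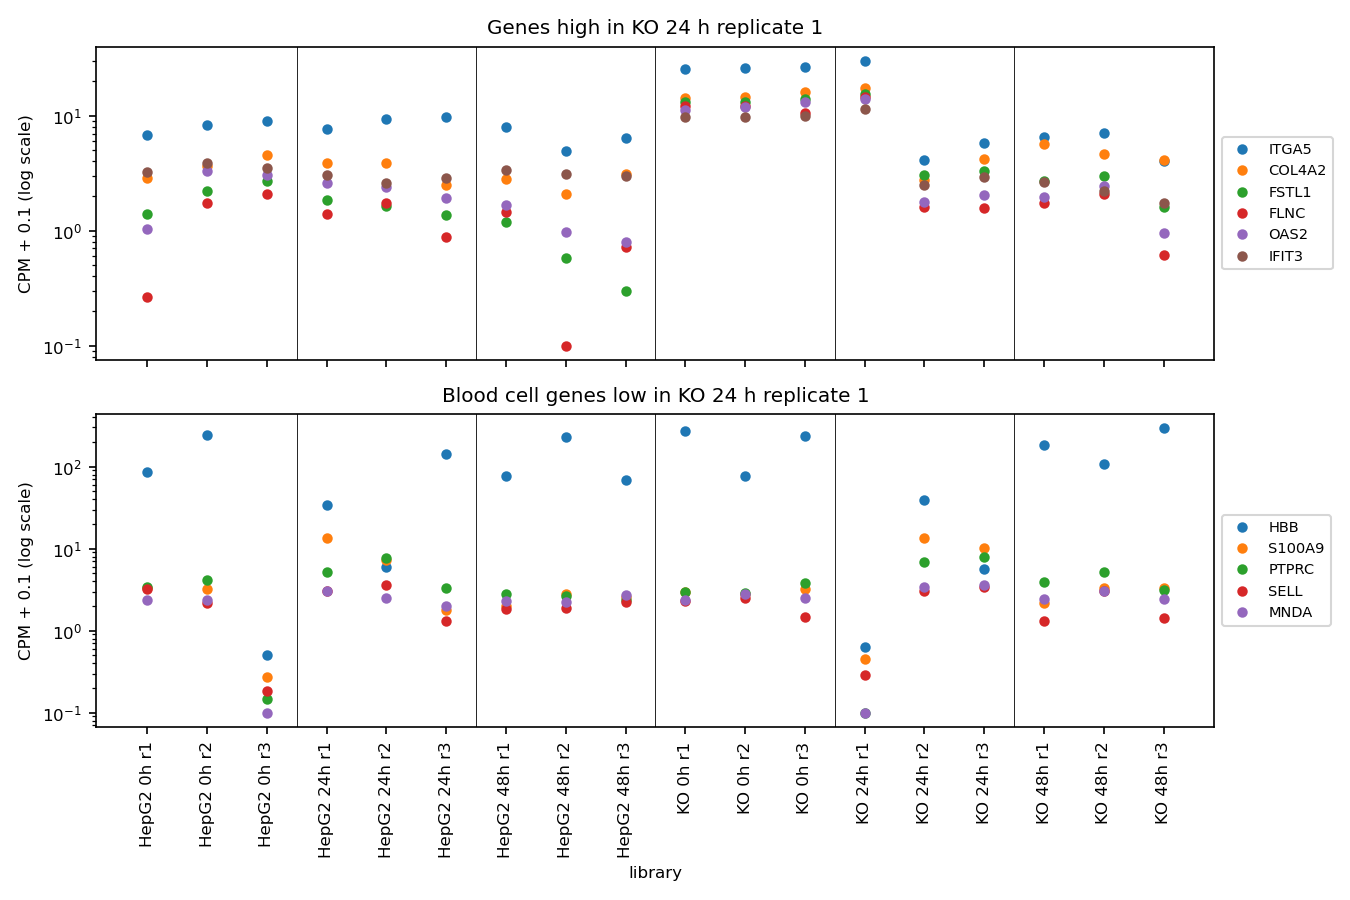
Levels (CPM + 0.1, log scale) in all 18 libraries, with 1 point for each library and gene, of 6 genes high in replicate 1 of APOA4-KO at 24 h and of 5 blood cell genes low there. ITGA5, COL4A2 and FSTL1 were at 15.4 to 29.7 CPM in that library and at 2.68 to 5.73 CPM in the other 24 h libraries, whereas S100A9 was at 0.356 CPM there and at 9.98 and 13.6 CPM in the others.

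After 24 h of hypoxia, 1160 of the 19743 genes tested (5.88%) passed both limits, which were a 2-fold change in size (1 or more on the log2 scale) and an adjusted p under 0.05 in edgeR. Of these, 728 (3.69%) were upregulated and 432 (2.19%) were downregulated. At least a 4-fold change was reached by 184 upregulated and 69 downregulated genes. Without the limit on size, 4252 genes (21.5%) rose and 4510 (22.8%) fell, and the median over all genes tested was -0.01 on the log2 scale. The 3 libraries of each group did not overlap in 700 of the upregulated and 406 of the downregulated genes, where 53% of all genes tested did not overlap. In such bulk libraries, fewer cells of a kind and less RNA per cell cannot be told apart.

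The largest increases with high counts came from genes of several kinds, among them CA9. SETBP1, a DNA-binding protein of the nucleus, had 0.694, 0.423 and 0.622 CPM at 0 h and 6.84, 7.06 and 7.87 CPM at 24 h, a log2 fold change of 3.65 (SE 0.29, adjusted p = 3.85e-09, edgeR), or 12.5-fold. CA9 had 38.0, 37.9 and 39.2 CPM at 0 h and 305.6, 299.5 and 306.3 CPM at 24 h, a log2 fold change of 2.98 (SE 0.0576, adjusted p = 7.91e-18, edgeR). In neither of these genes did any library at 24 h come near the range at 0 h. TNS1, which links integrins to actin, had 74.9 to 81.7 CPM at 0 h and 428.4 to 449.6 CPM at 24 h. The amino acid transporter SLC6A14 went from 7.66 to 9.58 CPM up to 52.2 to 56.0 CPM. IGFBP3, a carrier of insulin-like growth factors, went from 6.18 to 7.47 CPM up to 43.1 to 45.9 CPM, and the vasodilator peptide gene ADM from 7.88 to 9.18 CPM up to 47.3 to 51.2 CPM. The log2 fold changes of these 4 genes were 2.502, 2.70, 2.71 and 2.51. No overlap of the groups was a condition for picking the largest changes.

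Also among the 12 largest increases were TCAF2, PDE4C, FOS, FAM13A and EGLN3. EGLN3, a HIF prolyl hydroxylase, had 13.3, 11.9 and 12.7 CPM at 0 h and 68.1, 70.0 and 67.0 CPM at 24 h, a log2 fold change of 2.44. The transcription factor gene FOS rose by 2.73 and FAM13A, a gene with a RhoGAP domain, by 2.66 on the log2 scale. TCAF2, a regulator of the ion channel TRPM8, rose by 3.02, and by 0.82 on the log2(FPKM + 1) scale, where low values weigh less. PDE4C, a cAMP phosphodiesterase, was uneven at 0 h, with 2.79, 3.38 and 0.656 CPM, and had 14.9, 17.1 and 15.2 CPM at 24 h. Its log2 fold change of 2.79 (SE 0.41) is uncertain in its source, since 85.8% of its exon bases are shared with the gene AC008397.2 on the same strand.

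Among the 12 largest decreases, hemoglobin genes came first and stood on uneven libraries. HBB, the beta chain of hemoglobin, had 273.5, 77.5 and 237.3 CPM at 0 h and 0.534, 38.9 and 5.48 CPM at 24 h, a log2 fold change of -3.72 (SE 1.35, adjusted p = 0.0314, edgeR). HBA2 and HBA1, which are near-identical copies between which reads may be split, gave -3.26 and -3.07. The 3 calls were each lost without replicate 1 at 0 h, without replicate 1 at 24 h and without replicate 3 at 24 h (adjusted p up to 0.11), and that of HBB also without replicate 3 at 0 h. NICN1 had 1.93, 2.76 and 12.8 CPM at 0 h and 1.59, 1.37 and 1.36 CPM at 24 h. Its log2 fold change of -2.02 became -0.68 (adjusted p = 0.39, edgeR) without replicate 3 at 0 h, and its call was also lost without replicate 2 or replicate 3 at 24 h.

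Other large decreases were of metabolic and mitochondrial genes with even replicates. MT-CO3, a subunit of cytochrome c oxidase encoded in the mitochondrial genome, had 8743, 9332 and 9238 CPM at 0 h and 2386, 2477 and 2415 CPM at 24 h, and was thus 3.75-fold lower (log2 fold change -1.91, SE 0.0327, adjusted p = 1.83e-18, edgeR). The mitochondrial tRNA gene MT-TV had 11.9 to 12.6 CPM at 0 h and 2.96 to 3.28 CPM at 24 h. GPD1, which makes glycerol 3-phosphate, went from 10.05 to 10.97 CPM down to 2.47 to 3.09 CPM. DGAT1, which adds the last acyl chain of triglycerides, went from 125.5 to 129.7 CPM down to 39.8 to 43.2 CPM (log2 fold change -1.62, SE 0.0344). SLC6A9, a glycine transporter, GNMT, which methylates glycine, and CCND3, a cyclin of the G1 phase, fell by 1.67, 1.60 and 1.56 on the log2 scale. In all of these genes every library at 24 h was below every library at 0 h, which their selection required.

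Genes of glucose uptake and glycolysis rose together. For this list and those below, the shares over all genes tested were 21.5% rising, 22.8% falling, 3.69% upregulated and 2.19% downregulated. Of 22 tested, 19 rose and 1 fell, 8 of them were upregulated past the 2-fold limit and the median was 0.82 on the log2 scale. HK2, the hexokinase that holds glucose in the cell, had 135.1, 133.9 and 132.0 CPM at 0 h and 526.3, 549.8 and 538.2 CPM at 24 h, a log2 fold change of 2.01. PFKFB3, which makes the allosteric activator of phosphofructokinase, went from 22.9 to 25.8 CPM up to 124.5 to 129.0 CPM, and SLC2A3, a glucose transporter, from 344.8 to 365.9 CPM up to 1069 to 1113 CPM. These groups did not overlap. HK1, ENO2, PFKFB4 and PGK1 rose by 1.61, 1.63, 1.51 and 1.32. LDHA, lactate dehydrogenase A, rose by 0.97 and SLC16A3, the lactate exporter, by 0.92, both below the 2-fold limit. PFKL, the liver phosphofructokinase, fell by 0.19. PDK1 rose by 1.74.

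Genes of oxygen sensing mostly rose. Of 12 tested, 7 rose and 1 fell, 4 were upregulated, and the median was 0.22. EGLN1 had 37.3, 42.6 and 41.7 CPM at 0 h and 102.8, 112.3 and 106.5 CPM at 24 h, a log2 fold change of 1.40. HIF1A went from 82.5 to 93.8 CPM up to 138.4 to 143.5 CPM and EPAS1, the HIF-2 alpha subunit, from 268.5 to 276.5 CPM up to 554.5 to 557.8 CPM, with log2 fold changes of 0.71 and 1.03. CITED2, which competes with HIF for its coactivator, rose by 1.35. EGLN2 fell by 0.55. VHL rose by 0.22 and ARNT by 0.21, while HIF1AN, the asparagine hydroxylase of HIF, had a log2 fold change of -0.05 that did not pass the test.

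Secreted factors and genes of acid handling gave the highest median of the lists, 1.83, with 12 of 14 rising and 10 upregulated. VEGFA had 58.7, 62.3 and 57.2 CPM at 0 h and 193.8, 198.9 and 203.9 CPM at 24 h, a log2 fold change of 1.74. LOX, a lysyl oxidase of the matrix, ANGPTL4, an inhibitor of lipoprotein lipase, and IGFBP1 rose by 2.01, 1.87 and 1.79. NDRG1 rose by 1.98. EPO had 691, 749 and 756 counts at 0 h and 1166, 1168 and 1178 counts at 24 h. The groups did not overlap, and the log2 fold change was 0.75 (SE 0.096, adjusted p = 2.18e-06, edgeR). EDN1, the vasoconstrictor endothelin-1, went from 2.28 to 3.15 CPM up to 3.43 to 5.23 CPM, a log2 fold change of 0.67.

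Enzymes that use oxygen to act on chromatin and collagen mostly rose. Of 13 histone lysine demethylases, 12 rose and 1, KDM4A, fell, by 0.27, and KDM7A and KDM3A were upregulated, by 1.81 and 1.39. Of 11 collagen hydroxylases and lysyl oxidases tested, 8 rose and 1 fell, and PLOD2, P4HA2, LOX and LOXL3 were upregulated. The transcriptional repressors BHLHE40 and MXI1 and the mTOR inhibitor DDIT4 rose by 1.90, 1.78 and 1.24, while the MYC antagonist MXD4 fell by 1.03 and the glucose-responsive factor MLXIPL by 0.87. BNIP3 and BNIP3L, receptors that mark mitochondria for autophagy, rose by 1.63 and 1.68, and 3 of the 10 genes of that list were upregulated.

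Lipid genes moved in both directions, where 21.5% of all genes tested rose and 22.8% fell. PLIN2, the main coat protein of lipid droplets in liver, had 255.7, 244.7 and 251.0 CPM at 0 h and 1075, 1073 and 1100 CPM at 24 h, a log2 fold change of 2.11 (SE 0.0229, adjusted p = 3.83e-21, edgeR). HILPDA, an inhibitor of the lipase PNPLA2, went from 8.63 to 9.87 CPM up to 25.5 to 27.6 CPM, and PNPLA2 itself fell by 0.53. In the lipid droplet list of 16 tested genes, 2 rose, 7 fell and 7 did not pass the test, with a median of -0.45. VLDLR, FABP1, PPARG and LPIN2 were upregulated by 1.57, 1.29, 1.14 and 1.10, and SCD, the stearoyl-CoA desaturase, rose by 0.47. DGAT2 and the fatty acid synthase FASN fell by 0.93 and 0.68. Of 23 tested genes of fatty acid oxidation, 6 rose and 11 fell, with CPT1A, the gatekeeper of fatty acid entry into mitochondria, at 0.86 and the carnitine carrier SLC25A20 at -0.99. VLDLR and FABP1 were the 2 upregulated genes of the acyl-CoA and fatty acid uptake list, in which 6 of 14 rose and 5 fell.

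Genes of cholesterol synthesis fell. Of 21 tested, 16 fell and 3 rose, with a median of -0.32. MVK, mevalonate kinase, had 107.2, 103.9 and 103.0 CPM at 0 h and 43.6, 46.0 and 45.4 CPM at 24 h, a log2 fold change of -1.22. MVD, mevalonate decarboxylase, and LSS, which closes the sterol ring, were downregulated by 1.11 and 1.01 on the log2 scale, and LSS was at the limit. Of 12 apolipoprotein and lipoprotein assembly genes tested, 3 rose and 4 fell, where 21.5% of all genes tested rose and 22.8% fell. APOB, the backbone of hepatic lipoproteins, had 9174, 9223 and 9452 CPM at 0 h and 18810, 19130 and 18660 CPM at 24 h, and its log2 fold change of 1.02 was at the limit. MTTP, which loads lipid onto APOB, rose by 0.77, and APOA1 fell by 0.31.

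**Figure D2:**
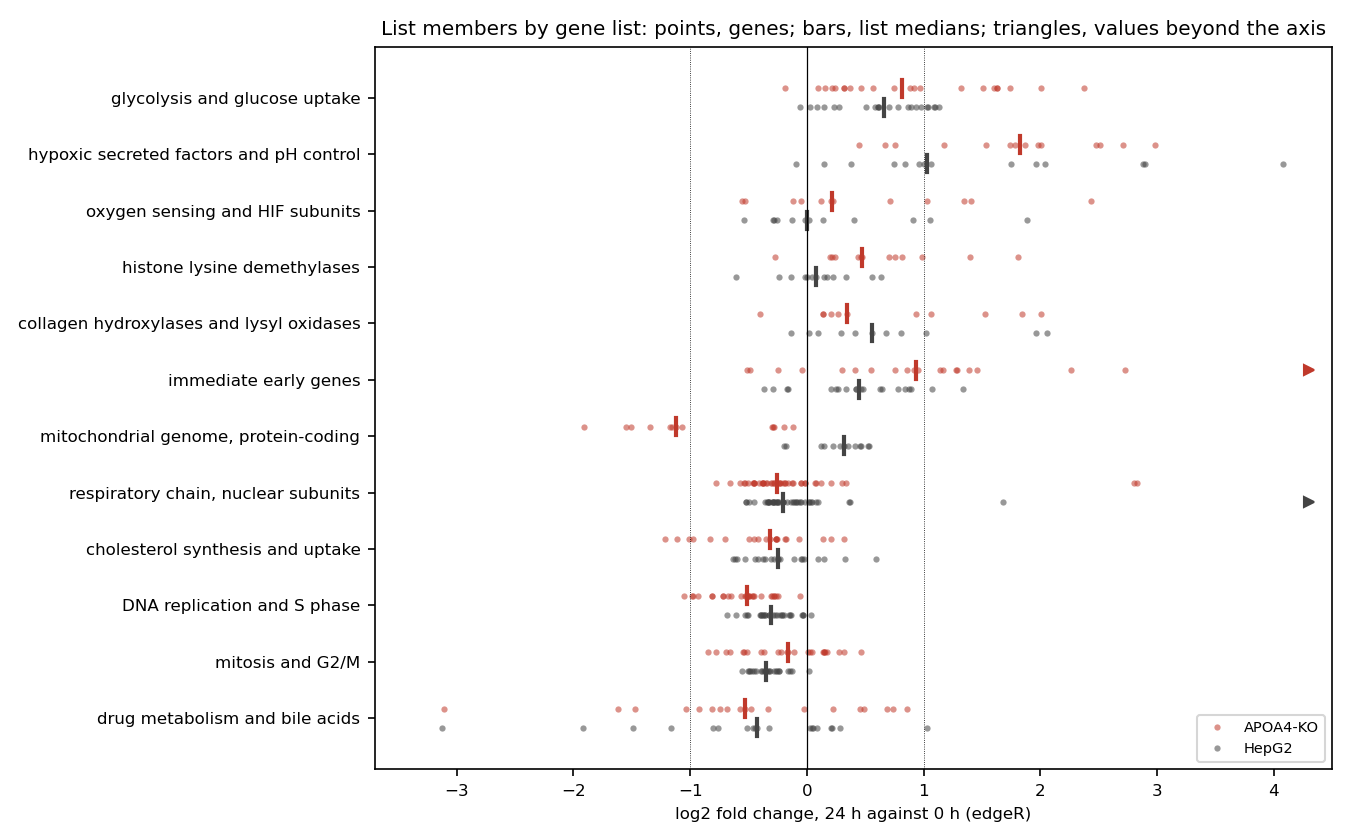
Log2 fold changes from 0 h to 24 h of the members of 12 gene lists in APOA4-KO (red) and in HepG2 (grey), with 1 point for each gene, a bar at the median and a triangle for values beyond the axis. The median of the secreted factors and pH control list was 1.83 in APOA4-KO and 1.03 in HepG2, and that of the genes encoded in the mitochondrial genome was -1.12 and 0.32.

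All 13 protein-coding genes of the mitochondrial genome fell, and 8 of them were downregulated. Their median was -1.12, and mitochondrial transcripts took 9.01% to 9.31% of all counts at 0 h and 5.34% to 5.42% at 24 h. The change was uneven along the set. MT-CYB, the cytochrome b of complex III, had 3360, 3390 and 3414 CPM at 0 h and 1179, 1125 and 1174 CPM at 24 h, and MT-ATP8, a subunit of ATP synthase, had 2079, 2049 and 2143 CPM at 0 h and 725.9, 737.6 and 742.5 CPM at 24 h, with log2 fold changes of -1.55 and -1.51. MT-ATP6, MT-ND1, MT-ND3, MT-ND2 and MT-CO2 fell by 1.34, 1.18, 1.16, 1.12 and 1.07. In contrast, MT-CO1 went from 20910, 21790 and 21750 CPM to 17550, 17270 and 17720 CPM, a log2 fold change of -0.29, and MT-ND4L, MT-ND4, MT-ND5 and MT-ND6 fell by 0.29, 0.28, 0.19 and 0.12. In each of these genes the 24 h libraries lay below the 0 h libraries. MT-ATP8 and MT-ATP6 share 46 bases on the same strand, so part of their reads may be split between them.

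The ribosomal RNAs and the median of the nuclear partners moved less far than the most changed of these genes. MT-RNR2, the large ribosomal RNA of mitochondria, fell by 0.96 and MT-RNR1, the small one, by 0.23. Of 43 nuclear genes of the respiratory chain, 30 fell and 4 rose, with a median of -0.26. NDUFV1, of the electron-accepting part of complex I, fell by 0.65 and UQCRC1, a core subunit of complex III, by 0.46. The single upregulated member was NDUFA4L2, a hypoxia-induced subunit-like protein, with 0.1496 to 0.3028 CPM at 0 h and 1.39 to 1.58 CPM at 24 h.

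**Figure D3:**
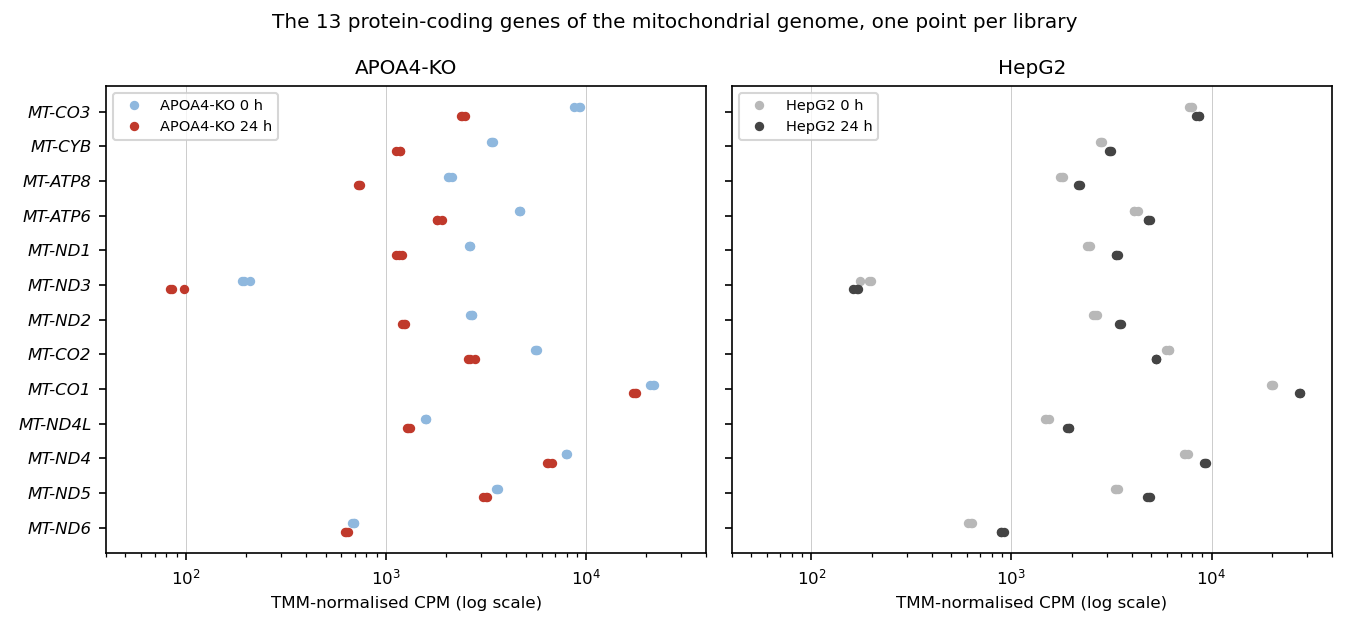
Levels (CPM, log scale) of the 13 protein-coding genes of the mitochondrial genome at 0 h and 24 h in APOA4-KO (left) and HepG2 (right), with 1 point for each library and genes ordered by their change in APOA4-KO. MT-CO3 went from 8743 to 9332 CPM down to 2386 to 2477 CPM in APOA4-KO and was at 8349 to 8670 CPM in HepG2 at 24 h.

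DNA replication genes fell while genes of mitosis were mixed, where 21.5% of all genes tested rose and 22.8% fell. Of 28 tested genes of replication and the S phase, 25 fell and none rose, with a median of -0.51. PCNA, the sliding clamp of DNA polymerase, went from 195.4 to 201.9 CPM down to 110.1 to 118.0 CPM. E2F1, which switches on S phase genes, and MCM2, of the replicative helicase, fell by 0.93 and 0.71. GINS2 fell by 1.05 and was the single member past the 2-fold limit. That count was 3 without replicate 1 at 24 h and 0 without replicate 3 at 0 h. Of 25 genes of mitosis and the G2 phase, 12 fell and 6 rose, with AURKB at -0.85, MKI67 at 0.32 and CENPF at 0.47. Of 10 G1 cyclins and CDK inhibitors, 5 rose and 4 fell, among them CCND1 at 0.45 and the p21 gene CDKN1A at -0.61. Of 12 replication-dependent histone genes, 1 rose, 1 fell and none passed the 2-fold limit in the edgeR test or its alternatives except for 1 called lower without replicate 2 at 24 h. Their summed level was 94.9 to 98.6 CPM at 0 h and 92.1 to 97.6 CPM at 24 h. The libraries are of poly(A) RNA, so these counts do not measure histone RNA without a poly(A) tail.

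Genes for the proteins that hepatocytes secrete rose more often than they fell, 16 against 4 of 25, where 21.5% of all genes tested rose and 22.8% fell. FGB, the fibrinogen beta chain, had 297.4, 295.2 and 290.4 CPM at 0 h and 828.0, 852.0 and 823.1 CPM at 24 h, a log2 fold change of 1.503. PLG, plasminogen, went from 2.37 to 3.57 CPM up to 13.4 to 14.2 CPM, and the fetal protein gene AFP rose by 0.64. ALB had a log2 fold change of -0.02 (SE 0.0182, adjusted p = 0.57, edgeR). Of 20 hepatocyte transcription factors, 7 rose and 8 fell: CEBPA went from 140.0 to 152.2 CPM down to 58.8 to 66.5 CPM, CEBPD rose by 1.40, and HNF4A had a log2 fold change of -0.03 that did not pass the test. NR5A2, with 0.242 to 0.580 CPM at 0 h and 0.616 to 1.11 CPM at 24 h, was called at 1.11 and lost that call without replicate 3 at 0 h and without replicate 1 or replicate 3 at 24 h (0.93 without replicate 1).

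In the metabolic lists of the hepatocyte, single genes moved far. PCK1, the enzyme that commits carbon to new glucose, had 15.9, 19.9 and 16.3 CPM at 0 h and 66.0, 67.6 and 70.4 CPM at 24 h, a log2 fold change of 1.97 (SE 0.123). Its coactivator gene PPARGC1A rose by 1.11 and G6PC1, which frees glucose from its phosphate, by 0.82, while PCK2, the mitochondrial isoenzyme, fell by 0.76. Of the 9 genes of gluconeogenesis, 5 rose and 3 fell. The single downregulated member, FBP1, was low at 0.921 to 1.47 CPM at 0 h and lost its call without any single 0 h library and without replicate 1 or replicate 2 at 24 h. Of 19 genes of drug metabolism and bile acids tested, 3 rose and 8 fell, and GSTA1, GSTA2 and CYP3A7 were downregulated by 1.47, 3.11 and 1.04. GSTA1 and GSTA2 are close paralogs between which reads may be split. CYP27A1, of the alternative bile acid pathway, fell by 0.74.

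Among the stress lists, genes moved in both directions, where 21.5% of all genes tested rose and 22.8% fell. Of 19 genes tested for ATF4 and amino acid supply, 11 fell and 4 rose, with a median of -0.49 (-0.37 without replicate 1 at 24 h). PHGDH, the first enzyme of serine synthesis, fell by 0.99. Of 20 endoplasmic reticulum chaperones and related genes, 13 rose and 5 fell. ERO1A, the oxidase that drives disulfide formation, was the single one past the 2-fold limit, at 1.53, and HSPA5, the chaperone BiP, rose by 0.38. Of 20 genes of the NRF2 and glutathione list, 6 rose and 9 fell, with the quinone reductase gene NQO1 falling by 0.98. Of 18 apoptosis regulators, 6 rose and 7 fell, with BIRC7 upregulated from 0.391 to 0.612 CPM up to 3.81 to 4.02 CPM. Of 15 genes of iron handling, 8 rose and 5 fell, and the transferrin receptor TFRC and the ferroxidase CP were upregulated by 1.04 and 1.22.

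Most immediate early genes rose, where 21.5% of all genes tested rose and 22.8% fell. Of 20 immediate early genes tested, 15 rose and 2 fell, 9 were upregulated, and the median was 0.93. FOS had 1.04, 1.43 and 1.17 CPM at 0 h and 8.03, 8.48 and 7.66 CPM at 24 h, and DUSP1, a phosphatase of MAP kinases, had 15.0 to 18.8 CPM at 0 h and 43.1 to 50.2 CPM at 24 h. EGR2 had no count at 0 h and 21, 32 and 4 counts at 24 h, at least 6.47-fold higher against a floor of 3 counts per library, and the list's median stayed at 0.93 with that bound. Of 18 genes of IL-6 and STAT signalling, 6 rose and 3 fell, with SOCS3, a feedback inhibitor, at 1.80 and the kinase gene PIM1 at 1.01. Of 12 genes of the insulin and IGF axis, 8 rose and 1 fell, and IGF2 went from 3053 to 3131 CPM up to 8309 to 8924 CPM (log2 fold change 1.48). IRS2 and IGFBP5 gave -1.27 and -1.04 with all libraries, which did not pass the test, and -2.27 and -2.28 without replicate 1 at 24 h, which did.

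Ribosomal protein genes fell by small amounts in APOA4-KO. Of 76 tested, 48 fell, 4 rose and 24 did not pass the test, none passed the 2-fold limit, and the median was -0.18. RPS3A went from 1019 to 1062 CPM down to 651.7 to 740.2 CPM, and RPL9 fell by 0.57. With scaling by library size alone the median was -0.21, with RLE size factors -0.19 and without replicate 1 at 24 h -0.12. In a list of this kind some members share reads with processed pseudogenes, and their counts are uncertain to that extent.

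The same day of hypoxia gave different sizes of change in HepG2, where 608 genes (3.08%) passed the limits. Of the 1160 genes called in APOA4-KO, 233 were called in the same direction in HepG2, which is 20.1% of the former and 38.3% of the latter, and 5 were called in opposite directions. The 728 upregulated genes had a median of 1.42 in APOA4-KO, which their selection sets, and 0.66 in HepG2, where 632 had the same sign. For the 432 downregulated genes the medians were -1.22 and -0.52, and 359 had the same sign in HepG2. In the test of the difference itself, 512 genes (2.59%) passed both limits, 278 (1.41%) with a higher and 234 (1.19%) with a lower change in APOA4-KO. At any size and an adjusted p under 0.05 in edgeR, the difference was above 0 in 3322 genes (16.8%) and below 0 in 3042 (15.4%).

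For some HIF targets no difference between the lines passed the test. LDHA rose by 0.97 in APOA4-KO and by 0.98 in HepG2, a difference of -0.01 (SE 0.0275, adjusted p = 0.934, edgeR), and LOX rose by 2.01 and 1.97, a difference of 0.04 (SE 0.0422, adjusted p = 0.586, edgeR). CA9 rose more in HepG2, from 10.4 to 13.2 CPM up to 199.6 to 208.8 CPM, and the difference was -1.09 (SE 0.0785, adjusted p = 5e-09, edgeR). The 0 h levels of CA9 did not overlap between the lines, with the APOA4-KO libraries higher. IGFBP1, EDN1 and G6PC1 also rose less in APOA4-KO, with differences of -1.11, -2.21 and -1.93. In EDN1 the 24 h libraries of HepG2 had 12.6 to 15.9 CPM and those of APOA4-KO 3.43 to 5.23 CPM.

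Other genes of the same lists rose more in APOA4-KO. EGLN1 had 37.7 to 41.6 CPM at 0 h and 39.2 to 39.3 CPM at 24 h in HepG2, and the difference between the lines was 1.42 (SE 0.0719, adjusted p = 5.27e-11, edgeR). HIF1A went down in HepG2, from 104.2 to 104.7 CPM to 83.6 to 87.1 CPM, and up in APOA4-KO, a difference of 1.00. PLIN2 reached 372.0 to 378.4 CPM in HepG2 from 177.9 to 190.5 CPM, a difference of 1.08. In the demethylase list, 12 of 13 genes had a difference above 0 and none below, and in the oxygen sensing list 7 of 12 and none. These counts take differences with an adjusted p under 0.05 in edgeR. Differences for KDM7A, HILPDA, PFKFB3 and FGB were 1.17, 1.23, 1.35 and 1.20. In the glycolysis list the difference was above 0 in 10 genes and below 0 in 7 at the same limit on p.

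The largest differences among genes called in APOA4-KO with high counts lay in PDE4C, PCK1, GPR146, FAM110C and AREG on the higher side. PCK1 had 2.34 to 2.96 CPM at 0 h and 1.51 to 1.80 CPM at 24 h in HepG2, against 15.9 to 19.9 CPM and 66.0 to 70.4 CPM in APOA4-KO, a difference of 2.57 (adjusted p = 1.77e-08, edgeR). GPR146, an orphan receptor, had 3.23, 2.35 and 3.04 CPM at 0 h and 11.58, 11.02 and 11.62 CPM at 24 h in APOA4-KO, while HepG2 had 0.557 to 2.85 CPM at 24 h. Of the exon bases of GPR146, 79.3% are shared with a gene on the opposite strand, and the sources used here do not state whether counting used strand. FAM110C went from 2.36 to 2.69 CPM up to 11.9 to 13.9 CPM and AREG, the growth factor amphiregulin, from 1.27 to 1.88 CPM up to 5.21 to 7.56 CPM in APOA4-KO, while in HepG2 AREG had 1.31 to 2.22 CPM at 24 h.

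On the lower side stood MT-CO3, MT-ATP8, MT-CYB, MTATP6P1 and NICN1. MT-CO3 had 7737, 7951 and 7940 CPM at 0 h and 8670, 8658 and 8349 CPM at 24 h in HepG2, and the difference was -2.03 (SE 0.0452, adjusted p = 5.37e-16, edgeR). All 13 protein-coding mitochondrial genes had a difference below 0 with an adjusted p under 0.05 in edgeR. In HepG2 itself 11 of them rose and 1 fell, with a median of 0.32. MTATP6P1 is a near-identical nuclear copy of part of the mitochondrial genome, and its counts are uncertain. In HepG2, 49 of the 76 ribosomal protein genes rose and 4 fell, where 18.3% of all genes fell and 11.4% rose. At the same limit on p the difference was below 0 in 64 of these 76 genes and above 0 in none. With RLE size factors and with library size alone the difference was below 0 in 68 and 62 of them, and in all 13 mitochondrial genes under both. With library size alone the counts in HepG2 itself were 37 ribosomal protein genes up and 6 down and 10 mitochondrial genes up and 2 down.

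**Figure D4:**
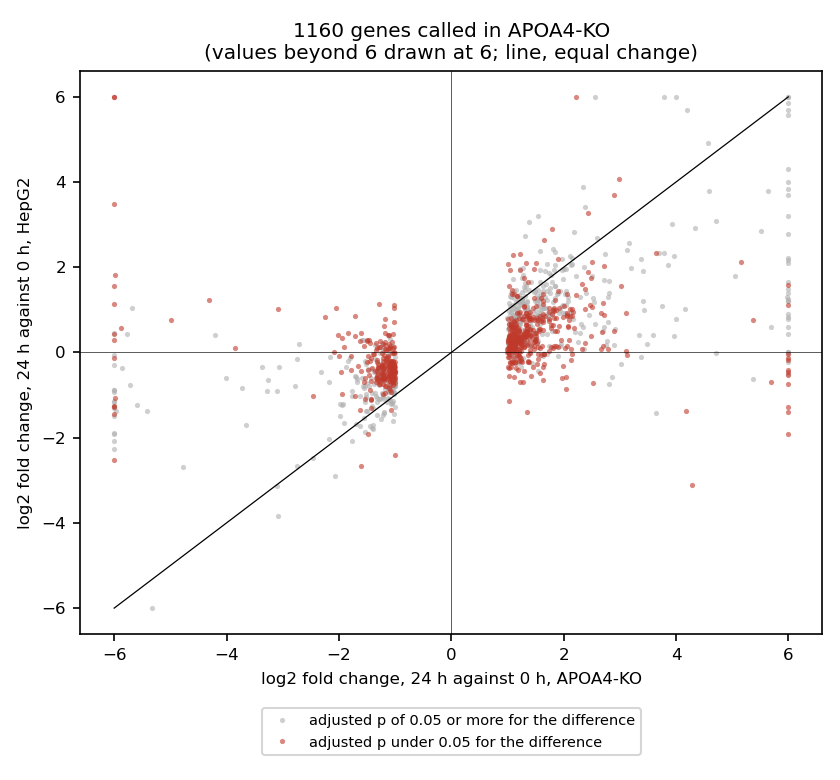
Log2 fold change from 0 h to 24 h in APOA4-KO (x axis) and HepG2 (y axis), with 1 point for each of the 1160 genes called in APOA4-KO and values beyond 6 drawn at 6, in red where the difference between the lines had an adjusted p under 0.05 in edgeR. The upregulated genes have a median of 1.42 in APOA4-KO and 0.66 in HepG2, and MT-CO3 lies at 0.12 in HepG2 and -1.91 in APOA4-KO.

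In the second day of hypoxia 1117 genes (5.66%) changed past the limits in APOA4-KO, 398 (2.02%) upward and 719 (3.64%) downward, a split that was 285 and 1014 with scaling by library size alone. At any size 4320 genes (21.9%) rose and 3840 (19.4%) fell. This comparison shares the 24 h libraries with the first, so the values of both are given side by side and are not independent. Of the 728 genes upregulated at 24 h, 152 rose further by 48 h, 175 fell and 401 did neither, and of the 432 downregulated genes 71 fell further, 139 rose and 222 did neither. EGLN3, VEGFA and IGFBP3 rose further, by 1.13, 0.93 and 2.14, and CA9 reached 404.1 to 415.8 CPM at 48 h. The immediate early genes IER3 and ZFP36 rose by 2.48 and 1.92 after rises of 1.16 and 1.14 on the first day. FGB fell back by 1.64, to 261.9, 270.8 and 269.0 CPM, and SLC6A14 and SETBP1 fell by 1.66 and 1.74. Of the 28 S phase genes 26 fell and 1 rose in the second day, with PCNA at -0.99 and a list median of -0.68. The mitochondrial genes MT-CYB and MT-CO3 fell further by 0.62 and 0.30, while 73 of the 76 ribosomal protein genes rose and none fell, with a median of 0.39.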

How the data were processed

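Poly(A) RNA of 18 samples, 3 for each of 6 groups, was sequenced in paired reads from dUTP-marked libraries. The authors used fastp for trimming and HISAT2 for alignment to GRCh38.p13. For quantification the labels name StringTie and the study's methods name featureCounts, and which of them made the deposited count table is not settled. The authors deposited raw counts per gene, whole numbers without normalization, for 61806 genes (28200 of them at 0 in all 18 libraries), and FPKM values, which the authors scaled by gene length and depth. Whether strand or reads with several alignments were used in counting is not given in the sources used here. Counts of 4 were 2.67 to 3.07 times as frequent as the mean of 3 and 5, so a count need not be a single read pair, and totals overstate the precision of small counts.

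Counts were fitted in edgeR 4.0.16 (R 4.3.3) with filterByExpr, TMM scaling, a coefficient for each group over all 18 libraries and the quasi-likelihood test, which left 19743 genes, 17412 with a symbol. Genes were called when they changed 2-fold or more (1 on the log2 scale) with a p under 0.05 after Benjamini-Hochberg adjustment. The words rose and fell are used for an adjusted p under 0.05 at any size, and upregulated and downregulated for called genes. Counts of differences between the lines above or below 0 also take only those with an adjusted p under 0.05. CPM values use TMM library sizes. The standard error of a log2 fold change is its size divided by the square root of the F statistic. The fits were tested on simulated data. Alternatives were DESeq2 1.42.0, RLE size factors, library size alone, no filter, the groups compared alone, a replicate block, counts divided by 4, leaving out each library, and limma 3.58.1 on log2(FPKM + 1) for genes with an FPKM of at least 0.5 in 3 libraries. Same-numbered libraries at 0 h and 24 h deviated from their group means with correlations of -0.014 to 0.003, and were fitted unpaired. Such correlations cannot show that libraries with the same number were unrelated.

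The members and gene lists were chosen with earlier results of these data known. Genes named were APOA4 and EPO, the 12 largest changes in each direction among genes that had a symbol, a group mean of 500 counts or more at the higher time, 10 counts or more in each library and no overlap of the groups, the 5 largest differences between the lines in each direction, list members with the largest changes or best known roles, and genes in which replicate 1 at 24 h lay farthest from the others, of which those without a symbol are not named. Some genes that this rule names are not reported here. Promoter sequences are from RefSeq (GRCh38.p14), gene positions from GENCODE (GRCh38), and guide sequences from the study's supplement.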

Additional observations from a re-analysis of the deposited data

Results flagged for a closer look

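For 10 genes called in APOA4-KO the change from 0 h to 24 h differed between APOA4-KO and HepG2 by the interaction term of the edgeR fit, and these are given as differences on the log2 scale (APOA4-KO minus HepG2). The change was larger in APOA4-KO for PDE4C (2.70), PCK1 (2.57), GPR146 (2.30), FAM110C (2.15) and AREG (1.91). It was lower in APOA4-KO for MTATP6P1 (-1.67), MT-CYB (-1.69), MT-ATP8 (-1.79), MT-CO3 (-2.03) and NICN1 (-2.43). All 3 libraries at 24 h lay above all 3 at 0 h in APOA4-KO for the first 5 genes and below for the others. The difference of NICN1 had an adjusted p of 0.0483 in edgeR and lost its call in 14 of 20 alternatives, with values from -2.83 to -0.92. Replicate 3 of APOA4-KO at 0 h had 12.8 CPM against 1.93 and 2.76 CPM in the others, and without it the difference was -1.10 (adjusted p = 0.328, edgeR).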

How the results depend on the processing

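Counts of called genes stayed within 1.5 times the reported ones except with limma on log2(FPKM + 1). There the change from 0 h to 24 h in APOA4-KO gave 281 genes (186 higher, 95 lower), the difference between the lines 104 (63 higher, 41 lower) and the change from 24 h to 48 h 138 (81 higher, 57 lower), on a scale that shrinks the changes of low genes. Leaving out 1 library at a time gave 1053 to 1321 genes from 0 h to 24 h (663 to 728 higher, 352 to 599 lower), 465 to 595 for the difference between the lines (240 to 300 higher, 193 to 307 lower) and 1001 to 1155 from 24 h to 48 h (373 to 404 higher, 597 to 772 lower). The highest count of lower genes, 599, was without replicate 1 of APOA4-KO at 24 h. With the replicate block 1143 genes were called from 0 h to 24 h (718 higher, 425 lower). The APOA4 log2 fold change of 0.04 was 0 to 0.12 when 1 library was left out, at 0 (adjusted p = 0.984, edgeR) without replicate 3 at 0 h. Among APOA4, EPO, the largest changes and the largest differences between the lines, calls were lost in 31 combinations of gene and setting, of which 14 were the difference between the lines in NICN1 and the others the change from 0 h to 24 h in HBB, HBA1, HBA2, NICN1, TCAF2 and CCND3, the last 2 only on the FPKM scale. List members such as CLDN5, NR5A2 and FBP1 lost calls as the report gives them. The causes were not tested.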
